A study of Rattus norvegicus with 16 samples.

Results

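Expression of 50 genes of the cell cycle and of mitosis was examined in rat mesenteric arteries. The genes were listed by name, and a probe was taken for a gene when the accession on the array was a RefSeq transcript of it. Of the 50 genes, 46 were matched, out of 15443 genes so named in all. They had 59 of the 30367 probes of the array, and *Mcm5*, *Bub1b*, *Cenpe* and *Top2a* had no such probe and were not analysed here. For the 12 genes with more than 1 probe, the probe with the highest mean test signal was used. By role, 5 of the 46 genes were of G1, namely cyclins and the transcription factor *E2f1*. Another 10 were genes of DNA replication and nucleotide supply, and 7 were kinases, cyclins and the transcription factor *Foxm1* of mitotic entry. There were 8 genes of the kinetochore and the spindle checkpoint and 8 genes of spindle assembly and cytokinesis. The rest were 3 subunits of the chromosomal passenger complex, 4 genes of mitotic exit, and *Mki67*, the proliferation marker.

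The rats were males of the spontaneously hypertensive strain (SHR) and of its normotensive control, Wistar Kyoto (WKY). They were compared at 6 weeks and at 5 months of age, in 3 sublines of each strain. These were SHR/NCrL, SHR/NHsd and the stroke-prone SHR/SP for SHR, and WKY/NCrL, WKY/NHsd and WKY/NTac for WKY. The NCrL sublines and SHR/SP came from the same breeder, and the NHsd and NTac sublines from others. Each test RNA was a pool of small mesenteric branches of 5 animals, cleaned of fat and blood but with the adventitia left on, and 1 pool was made per subline and age. Each pool was hybridised against 1 common reference made from all test RNAs, and no group received a treatment. The sublines of a strain were the replicates, so that the spread between pools of a group held differences between sublines.

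After 2 arrays that failed quality control in the labels were left out (SHR/NHsd and WKY/NHsd at 5 months), 14 arrays of 10 pools remained. There were 3 pools on 3 arrays for WKY at 6 weeks, 2 pools on 2 arrays for WKY at 5 months, 3 pools on 5 arrays for SHR at 6 weeks and 2 pools on 4 arrays for SHR at 5 months. On these arrays 65.4% to 71.9% of spots were well above background. Of the 46 genes, 36 were well above background on all 14 arrays, 10 were not on at least 1 array, and 5 (*Ccne2*, *Cenpa*, *Kif2c*, *Aurkb* and *Cdca8*) were on no array of at least 1 group. The others of these 10, *Ccnb2*, *Ttk*, *Cenpf*, *Kif11* and *Tpx2*, were well above background on 1 of 2 arrays of WKY at 5 months. Background thus limits their changes in WKY and their strain differences at 5 months. All 8 matched smooth muscle markers were well above background in every pool. A level is the log2 ratio of a pool over the reference, and a change or a difference is that of the means of 2 groups on this scale, given with its standard error (SE).

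As background, a cell that enters the cycle first makes D-type and E-type cyclins, which free E2F factors to switch on the genes of DNA replication. Genes of mitosis are switched on later, in G2, by a complex of MuvB proteins with B-MYB and FOXM1, which reaches promoters through an element called CHR and through the CCAAT box bound by NF-Y. Smooth muscle cells of a mature artery rarely divide, whereas a growing artery adds cells, and transcripts of mitosis are made mainly in dividing cells.

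Promoters of the genes were read from RefSeq (rat build GRCr8), from 250 bases before to 50 bases after the start of the gene. A single promoter was listed for 33 of the 46 genes. The CHR (TTTGAA, either strand) was found in 18 of the 24 promoters of mitotic genes (75%), in 1 of the 9 promoters of G1 and replication genes (11.1%) and in 18.3% of all 33469 promoters. The NF-Y box (CCAAT, either strand) was found in 19 of 24 (79.2%), 5 of 9 (55.6%) and 37.5%, respectively. The order was the opposite for the E2F words (TTCCCGC, the variant TTGGCGC, the variant TTCGCGC and the variant TTGCCGC, either strand), which were in 4 of 24 promoters of mitotic genes (16.7%), 6 of 9 promoters of G1 and replication genes (66.7%) and 9.52% of all promoters. A match of letters is a description and does not show that a factor binds there. Shown here, with matches to any of the 3 motifs in capitals, are the promoters of *Prc1*, *Nusap1*, *Ndc80*, *Knstrn* and *Cdca3*, whose transcripts fell in WKY, of *Cdk1*, the kinase of mitotic entry, and of the replication gene *Mcm6*, which did not pass the test in any comparison. *Cdk1* has 2 CHR, 3 NF-Y and 2 E2F matches, *Prc1* and *Nusap1* each have 1 CHR and 2 NF-Y matches, *Ndc80* and *Knstrn* have 1 CHR match each, *Cdca3* has 3 NF-Y matches, and *Mcm6* has 5 E2F matches and 2 NF-Y matches but no CHR. Overlapping matches on opposite strands were counted separately. In *Mcm6* the E2F matches at bases -138 and -135 overlap in this way, and so do those at -75 and -72.
Cdk1 (chr20:19265043-19265342, + strand): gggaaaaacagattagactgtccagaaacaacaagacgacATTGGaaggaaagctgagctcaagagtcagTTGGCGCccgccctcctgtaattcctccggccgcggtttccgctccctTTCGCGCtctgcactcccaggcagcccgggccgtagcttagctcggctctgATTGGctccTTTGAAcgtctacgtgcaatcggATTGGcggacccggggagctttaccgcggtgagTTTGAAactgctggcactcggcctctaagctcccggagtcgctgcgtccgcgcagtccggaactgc
Prc1 (chr1:143659231-143659530, + strand): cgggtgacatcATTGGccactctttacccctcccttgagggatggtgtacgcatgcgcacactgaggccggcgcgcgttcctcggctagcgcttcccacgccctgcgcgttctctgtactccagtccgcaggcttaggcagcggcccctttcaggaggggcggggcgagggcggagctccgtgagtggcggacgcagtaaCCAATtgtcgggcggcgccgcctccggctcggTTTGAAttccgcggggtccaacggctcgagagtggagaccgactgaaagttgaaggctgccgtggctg
Nusap1 (chr3:127057045-127057344, + strand): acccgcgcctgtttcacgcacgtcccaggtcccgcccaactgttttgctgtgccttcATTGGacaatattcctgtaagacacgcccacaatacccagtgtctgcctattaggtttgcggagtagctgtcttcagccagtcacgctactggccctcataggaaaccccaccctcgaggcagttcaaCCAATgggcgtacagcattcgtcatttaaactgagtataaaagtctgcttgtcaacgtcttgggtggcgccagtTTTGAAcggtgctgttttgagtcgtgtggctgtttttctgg
Ndc80 (chr9:118887480-118887779, - strand): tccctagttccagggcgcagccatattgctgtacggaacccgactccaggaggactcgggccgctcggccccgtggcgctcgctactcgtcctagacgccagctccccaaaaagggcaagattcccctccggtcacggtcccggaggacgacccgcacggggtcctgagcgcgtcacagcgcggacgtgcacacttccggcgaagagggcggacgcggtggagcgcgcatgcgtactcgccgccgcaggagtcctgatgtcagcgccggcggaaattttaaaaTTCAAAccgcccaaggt
Knstrn (chr3:126254446-126254745, + strand): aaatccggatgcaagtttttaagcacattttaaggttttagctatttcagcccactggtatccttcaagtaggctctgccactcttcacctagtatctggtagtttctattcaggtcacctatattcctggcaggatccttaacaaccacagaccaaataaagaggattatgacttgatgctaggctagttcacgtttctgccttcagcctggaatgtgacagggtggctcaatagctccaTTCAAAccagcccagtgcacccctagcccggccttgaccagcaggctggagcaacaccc
Cdca3 (chr4:159320953-159321252, + strand): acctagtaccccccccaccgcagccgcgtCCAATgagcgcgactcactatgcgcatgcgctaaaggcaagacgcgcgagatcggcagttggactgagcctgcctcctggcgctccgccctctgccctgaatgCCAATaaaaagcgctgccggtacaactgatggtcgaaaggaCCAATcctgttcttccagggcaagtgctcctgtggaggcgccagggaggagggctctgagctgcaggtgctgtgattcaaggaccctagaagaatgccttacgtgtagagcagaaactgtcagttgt
Mcm6 (chr13:42404303-42404602, - strand): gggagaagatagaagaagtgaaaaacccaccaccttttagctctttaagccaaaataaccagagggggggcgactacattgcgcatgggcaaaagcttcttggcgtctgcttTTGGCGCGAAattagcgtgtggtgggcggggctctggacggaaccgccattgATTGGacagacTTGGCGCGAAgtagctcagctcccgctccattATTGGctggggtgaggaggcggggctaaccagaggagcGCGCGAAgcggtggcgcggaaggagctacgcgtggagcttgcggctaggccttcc

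The first question was how these genes changed upon maturation, from 6 weeks to 5 months. Upon maturation 44 of the 46 genes had lower values in both strains, and *Ccnd1* and *Ccnd2*, the D-type cyclins of early G1, had higher ones. Of all probes 50.8% were lower in WKY and 46.5% in SHR. *Rrm1* was the closest to no change, at 0 after rounding in WKY. The median of the 46 genes was -1.01 on the log2 scale in WKY, which is 2.01-fold lower, and -0.57 in SHR, which is 1.48-fold lower, while the median of all probes lay within 0.02 of 0. In the comparison averaged over both strains the median was -0.8, 29 genes fell at an adjusted p under 0.05 in limma's moderated test and 1 gene, *Ccnd1*, rose, against 1.16% and 0.533% of all probes called lower and higher. In WKY alone 6 genes were called lower (0.148% of all probes), and in SHR alone 0 genes were called lower (0.685% of all probes) and *Ccnd1* was called higher (0.359%). By unadjusted p under 0.05 in limma's test, 33 of the genes passed in WKY (6.52% of all probes) and 31 in SHR (9.56% of all probes). The calls within a strain depended on the fit. When the arrays of 1 pool were averaged 0 genes were called in WKY and 0 in SHR, and with only the compared groups in the fit 0 genes were called in WKY (0% of all probes) and 11 in SHR, all lower (1.72% of all probes).

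**Figure D1:**
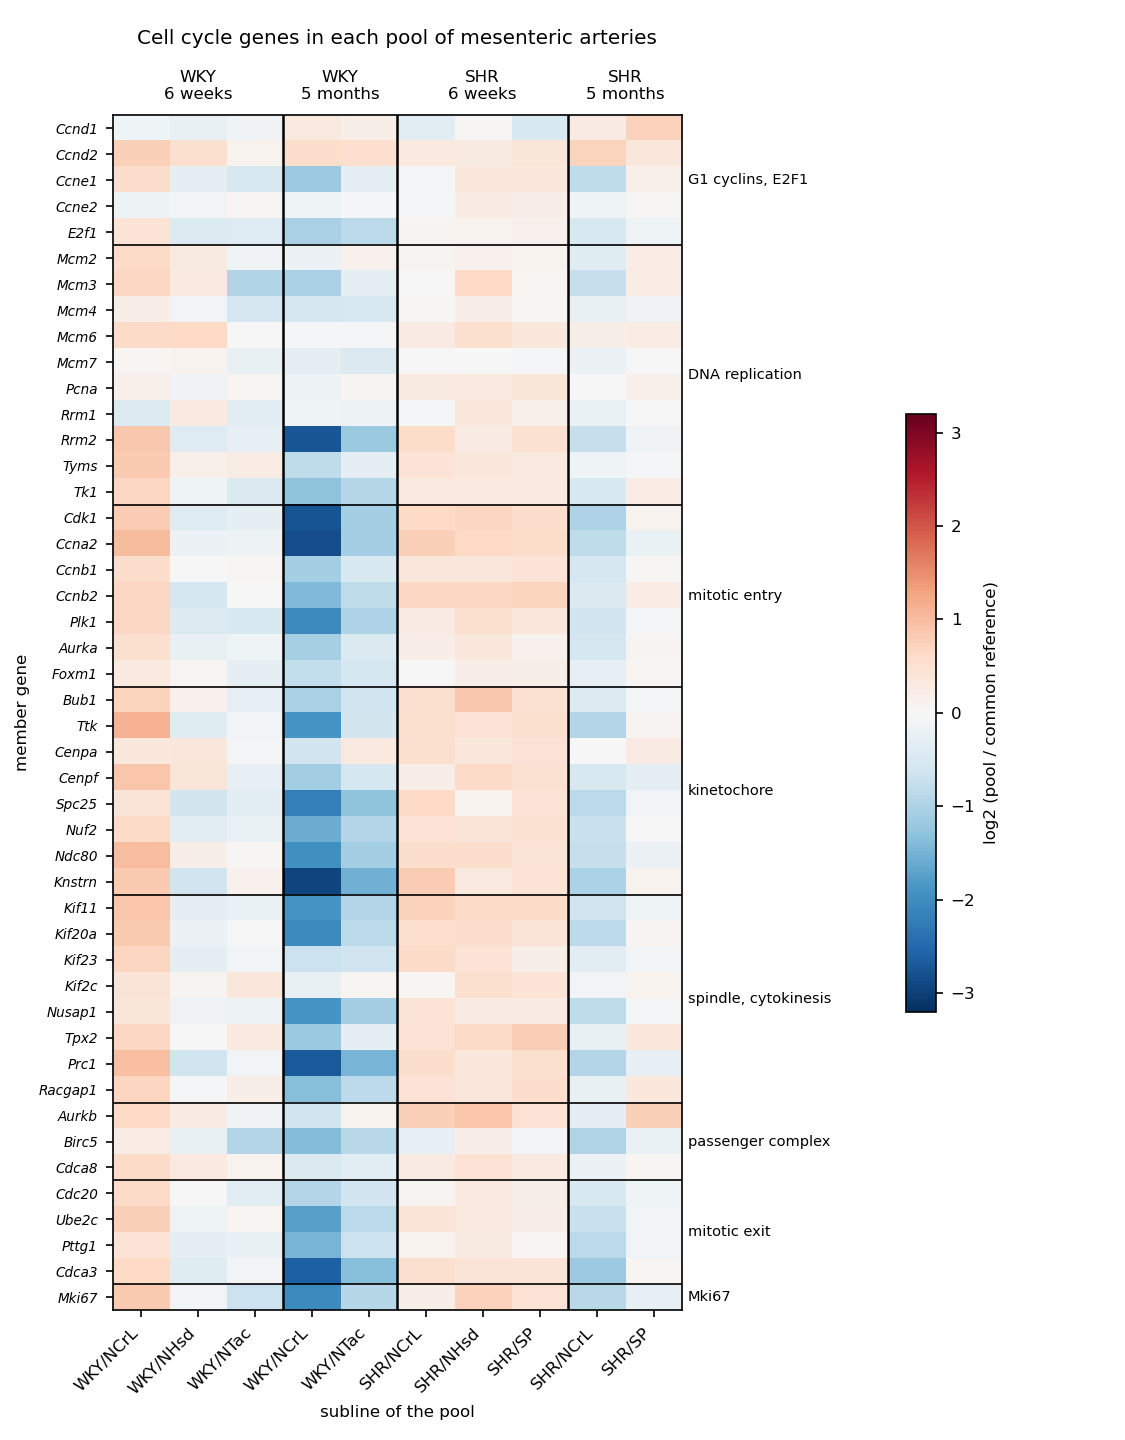
Level of each of the 46 genes (lines, grouped by role) in each of the 10 pools (columns, grouped by strain and age), as log2 ratio over the common reference, from -3.2 (blue) to 3.2 (red). WKY/NCrL at 5 months, where *Knstrn* was at -2.93, held the lowest value of 39 of the 46 genes.

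The number of calls depended on how the pairs of arrays of 1 pool were treated. When these arrays were averaged, so that each pool counted once, 44 genes still had lower values and the median was as low, but 3 genes were called (*Ndc80*, *Nusap1* and *Prc1*, with adjusted p of 0.0221, 0.0334 and 0.0493 in limma), against 0.481% of all probes called in either direction in that fit. The 4 pairs of arrays gave medians of the 46 genes that differed by at most 0.03, and the median difference of a single gene within a pair was 0.06 to 0.14. Pools of the same group were further apart, with a pooled SD of 0.33 for the median of the genes. The counts of calls below come from the fit on all 14 arrays and are to be read beside this.

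Between pools, the ranges separated for most genes. In WKY, both pools of 5 months lay below all 3 pools of 6 weeks for 34 of the 46 genes (11.1% of all probes), and in SHR this was also so for 34 genes (11.6% of all probes). In both strains at once it held for 31 genes, against 2.84% of all probes. For *Ccnd1* the pools separated the other way in both strains, as they did for 2.15% of all probes.

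By role, the medians were lower for mitotic genes than for genes of earlier phases. The median change averaged over strains was -0.12 for the 5 G1 genes, -0.33 for the 10 replication genes, -0.97 for mitotic entry, -1.12 for the kinetochore, -1.01 for spindle and cytokinesis, -0.58 for the passenger complex, -0.98 for mitotic exit and -1.29 for *Mki67*. In WKY the medians ran from -0.02 for G1 genes and -0.44 for replication genes to -1.38 for the kinetochore, -1.46 for spindle and cytokinesis and -1.5 for *Mki67*. In SHR they ran from -0.22 and -0.28 to -0.87, -0.67 and -1.07 for the same roles. Whether roles differ from each other was not tested, since the genes of a role are measured in the same pools.

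**Figure D2:**
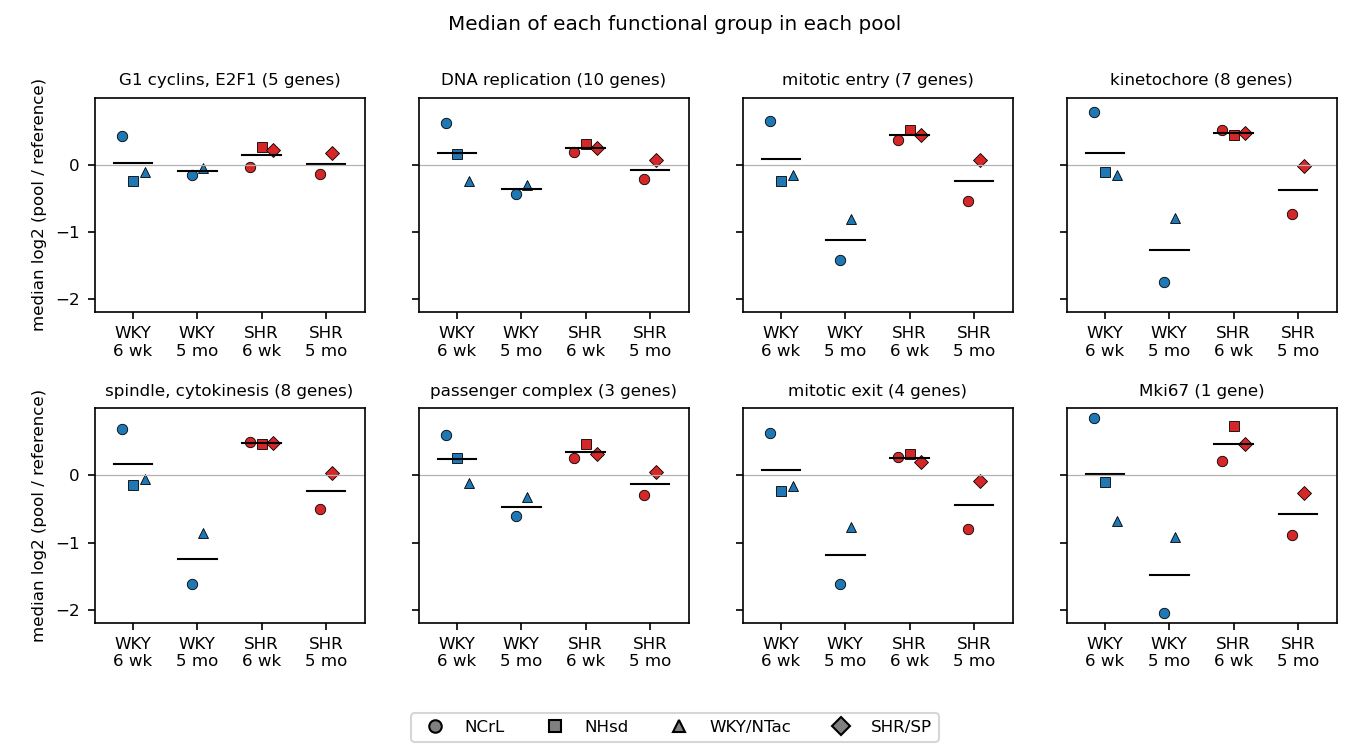
Median level of the genes of each role in each pool, as log2 ratio over the reference, with WKY in blue and SHR in red, the subline given by the marker and the mean of the pools of a group as a bar. Both 5-month WKY pools lie below the WKY pools of 6 weeks in the mitotic panels, and the groups overlap for the G1 genes.

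Among the G1 genes, *Ccnd1*, whose cyclin D1 partners CDK4 and CDK6, rose. Its levels in WKY at 6 weeks were -0.13 in NCrL, -0.24 in NHsd and -0.11 in NTac, and at 5 months 0.3 in NCrL and 0.19 in NTac. In SHR they were -0.33 in NCrL, 0.04 in NHsd and -0.49 in SP at 6 weeks, and 0.26 in NCrL and 0.74 in SP at 5 months. All 4 older pools lay above all 6 younger ones. The rise was 0.58 ± 0.13 (SE, adjusted p = 0.0295 in limma) averaged over strains, 0.76 ± 0.17 in SHR (adjusted p = 0.0411) and 0.41 ± 0.19 in WKY (adjusted p = 0.769). With arrays of a pool averaged its adjusted p was 0.095 averaged over strains and 0.255 in SHR in limma. *Ccnd2* changed by 0.15 ± 0.12, with overlapping groups. *E2f1*, the transcription factor that starts S phase, fell by 0.62 ± 0.15 (adjusted p = 0.0482 in limma), and a second probe of it, which was above background on 2 of 3 arrays of WKY at 6 weeks and on 0 of 2 at 5 months, changed by -0.04. The E-type cyclins *Ccne1* (-0.61 ± 0.23) and *Ccne2* (-0.12 ± 0.15) did not pass the test.

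Among the replication genes, the 3 that were called make nucleotides for DNA. *Rrm2*, the regulated subunit of ribonucleotide reductase, was at 0.86 in NCrL, -0.42 in NHsd and -0.27 in NTac for WKY at 6 weeks, and at -2.75 in NCrL and -1.19 in NTac at 5 months. In SHR it was at 0.59 in NCrL, 0.25 in NHsd and 0.49 in SP at 6 weeks, and at -0.75 in NCrL and -0.12 in SP at 5 months. The ages did not overlap in either strain. *Rrm2* fell by 1.44 ± 0.26 averaged over strains (2.72-fold, adjusted p = 0.00842 in limma), and its second probe changed by -0.68 ± 0.19 (adjusted p = 0.101). *Tyms*, which makes thymidylate, fell by 0.72 ± 0.16 (adjusted p = 0.0292 in limma) and *Tk1*, the thymidine kinase of S phase, by 0.79 ± 0.19 (adjusted p = 0.0454). The replicative helicase subunits *Mcm2*, *Mcm3*, *Mcm4*, *Mcm6* and *Mcm7* changed by -0.24, -0.59, -0.34, -0.32 and -0.23, and none passed the test. *Pcna*, the sliding clamp, was at -0.16 ± 0.09, and *Rrm1*, the other subunit of ribonucleotide reductase, at -0.14 ± 0.15.

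Of the 7 genes of mitotic entry, 5 were called lower averaged over strains. *Cdk1*, the kinase that drives entry into mitosis, was at 0.82 in NCrL, -0.41 in NHsd and -0.29 in NTac for WKY at 6 weeks, and at -2.77 in NCrL and -1.08 in NTac at 5 months. In SHR its levels were 0.64 in NCrL, 0.69 in NHsd and 0.55 in SP at 6 weeks, and -0.99 in NCrL and 0.1 in SP at 5 months. The 3 young SHR pools were close together, while the young WKY pools spread over more than a log2 unit. *Cdk1* fell by 1.52 ± 0.29 (2.86-fold, adjusted p = 0.0119 in limma). The largest fall of any of the 46 genes averaged over strains was that of *Ccna2*, cyclin A2, at 1.68 ± 0.27 (3.19-fold, adjusted p = 0.00518 in limma). In WKY *Ccna2* changed by -2.18 ± 0.41 with an adjusted p of 0.0504 in limma, and its second probe by -1.57 ± 0.29 with an adjusted p of 0.0461. The B-type cyclins *Ccnb1* and *Ccnb2* fell by 0.82 ± 0.15 and 0.97 ± 0.2 and the kinase *Plk1* by 1.07 ± 0.22. *Aurka*, the centrosomal Aurora kinase, was at -0.64 ± 0.16 (adjusted p = 0.0587 in limma) and *Foxm1* at -0.47 ± 0.12 (adjusted p = 0.0541), so that both stayed just outside the threshold.

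At the kinetochore 7 of 8 genes were called lower averaged over strains, the exception being *Cenpa*, the centromeric histone, at -0.34 ± 0.16. *Ndc80*, which with *Nuf2* and *Spc25* belongs to the complex that grips microtubules, showed the smallest adjusted p of the 46 genes. It was at 0.98 in NCrL, 0.19 in NHsd and 0.03 in NTac for WKY at 6 weeks, and at -1.96 in NCrL and -1.09 in NTac at 5 months. In SHR it was at 0.55 in NCrL, 0.56 in NHsd and 0.41 in SP at 6 weeks, and at -0.75 in NCrL and -0.18 in SP at 5 months. All 6 young pools were above the reference and all 4 older pools below it. *Ndc80* fell by 1.93 ± 0.28 in WKY (3.8-fold, adjusted p = 0.00833 in limma) and by 1.45 ± 0.18 averaged over strains (2.73-fold, adjusted p = 0.000826). *Nuf2* and *Spc25* fell by 1.05 ± 0.19 and 1.21 ± 0.21 averaged over strains.

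*Knstrn*, which helps chromosomes align and separate, had the largest fall within WKY. Its levels in WKY were 0.83 in NCrL, -0.64 in NHsd and 0.14 in NTac at 6 weeks, and -2.93 in NCrL and -1.55 in NTac at 5 months. In SHR they were 0.81 in NCrL, 0.3 in NHsd and 0.44 in SP at 6 weeks, and -1.02 in NCrL and 0.12 in SP at 5 months. *Knstrn* fell by 2.35 ± 0.43 in WKY (5.09-fold, adjusted p = 0.0446 in limma), and the change in SHR was -0.94 ± 0.37 (adjusted p = 0.381). The checkpoint kinases *Bub1* and *Ttk* fell by 0.95 ± 0.16 and 1.19 ± 0.28 averaged over strains, and *Cenpf*, a large kinetochore protein of G2 and mitosis, by 1.02 ± 0.18. A second *Bub1* probe, not above background on any array, changed by 0.04.

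Of the 8 spindle and cytokinesis genes, 7 were called lower averaged over strains, all but the microtubule depolymerase *Kif2c* (-0.36 ± 0.15). In WKY alone the genes called were *Prc1*, which bundles the microtubules of the central spindle, *Nusap1*, which stabilises spindle microtubules, and *Racgap1*, a subunit of centralspindlin. *Prc1* was at 0.96 in NCrL, -0.64 in NHsd and -0.1 in NTac for WKY at 6 weeks, and at -2.7 in NCrL and -1.5 in NTac at 5 months. In SHR it was at 0.57 in NCrL, 0.33 in NHsd and 0.52 in SP at 6 weeks, and at -0.95 in NCrL and -0.27 in SP at 5 months. *Prc1* fell by 2.17 ± 0.38 in WKY (4.51-fold, adjusted p = 0.0322 in limma) and by 1.63 ± 0.25 averaged over strains (adjusted p = 0.00375).

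*Nusap1* was at 0.39 in NCrL, -0.11 in NHsd and -0.17 in NTac for WKY at 6 weeks, and at -1.88 in NCrL and -1.1 in NTac at 5 months. In SHR it was at 0.43 in NCrL, 0.25 in NHsd and 0.26 in SP at 6 weeks, and at -0.82 in NCrL and -0.04 in SP at 5 months. The ages were apart in both strains, by less in SHR/SP than elsewhere. *Nusap1* fell by 1.53 ± 0.25 in WKY (2.89-fold, adjusted p = 0.0241 in limma). The kinesins *Kif11*, *Kif20a* and *Kif23* fell by 1.29 ± 0.21, 1.27 ± 0.23 and 0.68 ± 0.15 averaged over strains, and *Tpx2*, which activates Aurora A on the spindle, by 0.81 ± 0.18.

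In the chromosomal passenger complex, which corrects faulty kinetochore attachments, *Cdca8* was the only one of 3 genes called (fall of 0.58 ± 0.12, adjusted p = 0.0243 in limma). *Cdca8* was not above background on either array of WKY at 5 months. In the test channel it was an estimated 1.62-fold lower there than in WKY at 6 weeks, a value without an error. Its change in WKY had an adjusted p of 0.179 in limma's fit of the ratios. For this estimate a floor stood in for the dim group. The floor was the lowest signal of a probe well above background on each array, or the dim probe's own where higher. Without swapped dyes the estimate is open to dye bias, and it is not a lower limit. No such estimate is given for *Aurkb*. It was above background on 1 of 3 arrays of WKY at 6 weeks and 0 of 2 at 5 months. Its age difference was -1.24 in WKY/NCrL and 0.22 in WKY/NTac (adjusted p = 0.887 in limma for the change in WKY). *Cenpa* and *Kif2c* were also above background on 0 of 2 arrays of WKY at 5 months. No estimate is given for them, since the test channel alone and the ratios gave different folds. *Ccne2* was not well above background on any array of WKY at 6 weeks or of SHR at 5 months. *Birc5*, survivin, was at -0.69 ± 0.2 and *Aurkb*, the kinase of the complex, at -0.49 ± 0.22. All 4 genes of mitotic exit were called lower averaged over strains. *Cdca3*, which directs the mitotic inhibitor WEE1 to degradation, fell by 2.05 ± 0.38 in WKY (4.15-fold, adjusted p = 0.0461 in limma) and by 1.52 ± 0.25 averaged over strains. *Ube2c*, the ubiquitin-conjugating enzyme of the anaphase-promoting complex, fell by 1.12 ± 0.21, *Pttg1*, securin, by 0.84 ± 0.19, and *Cdc20*, the activator of that complex, by 0.69 ± 0.15. *Mki67* fell by 1.29 ± 0.24 (2.44-fold, adjusted p = 0.0119 in limma).

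**Figure D3:**
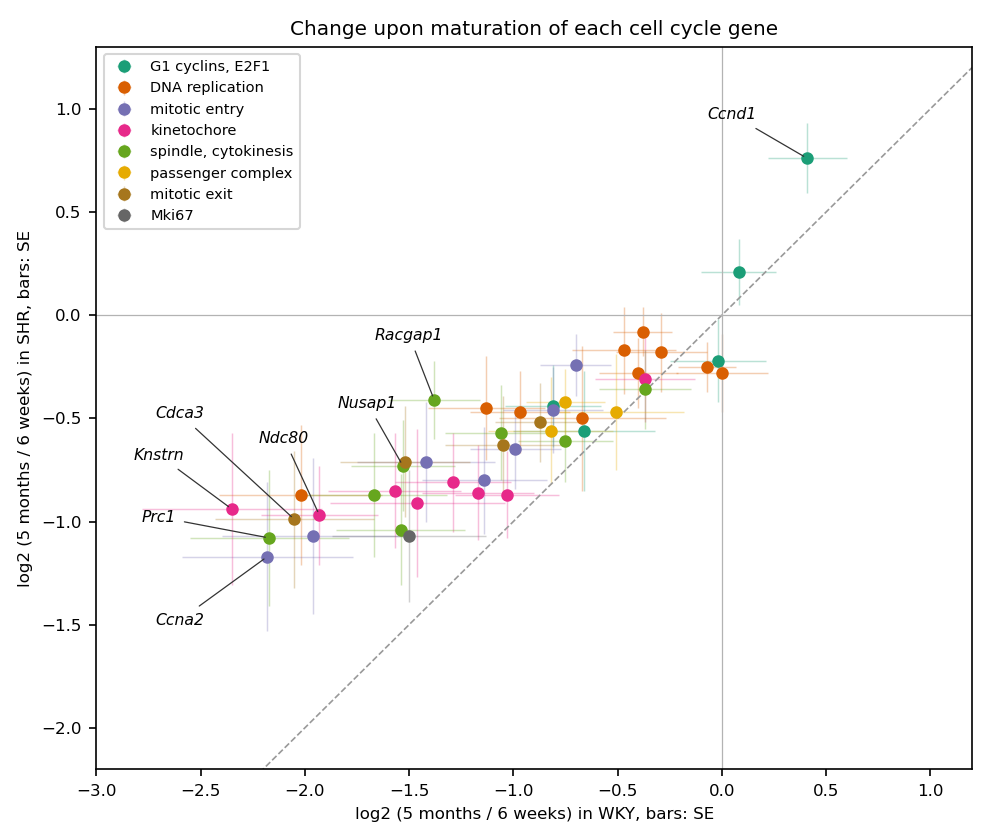
Change upon maturation of each gene in WKY (horizontal) and in SHR (vertical), as log2 of 5 months over 6 weeks with standard errors, coloured by role, and equal change on the dashed line. The lower left holds the mitotic genes, with *Knstrn* at -2.35 in WKY and -0.94 in SHR, and *Ccnd1* lies at the upper right.

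Age differences were also taken within sublines. For the 4 sublines with both ages the median difference of 5 months minus 6 weeks was -1.74 in WKY/NCrL, -0.45 in WKY/NTac, -0.8 in SHR/NCrL and -0.3 in SHR/SP, with 1 pool at each age and hence no test. The difference was below 0 for 43, 35, 44 and 41 of the 46 genes, respectively, while it was below 0 for 48.8% to 51.1% of all probes in these sublines. A difference of more than 1 log2 unit downwards was seen for 35 genes in WKY/NCrL (1.4% of all probes), 17 in SHR/NCrL (0.626%), 5 in WKY/NTac (0.375%) and 0 in SHR/SP (0.787%). In all 4 sublines 33 genes were lower at 5 months, against 8.64% of all probes, and *Ccnd1* was higher, as were 8.1% of all probes. In WKY/NCrL the largest difference was that of *Ccna2* at -3.85.

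**Figure D4:**
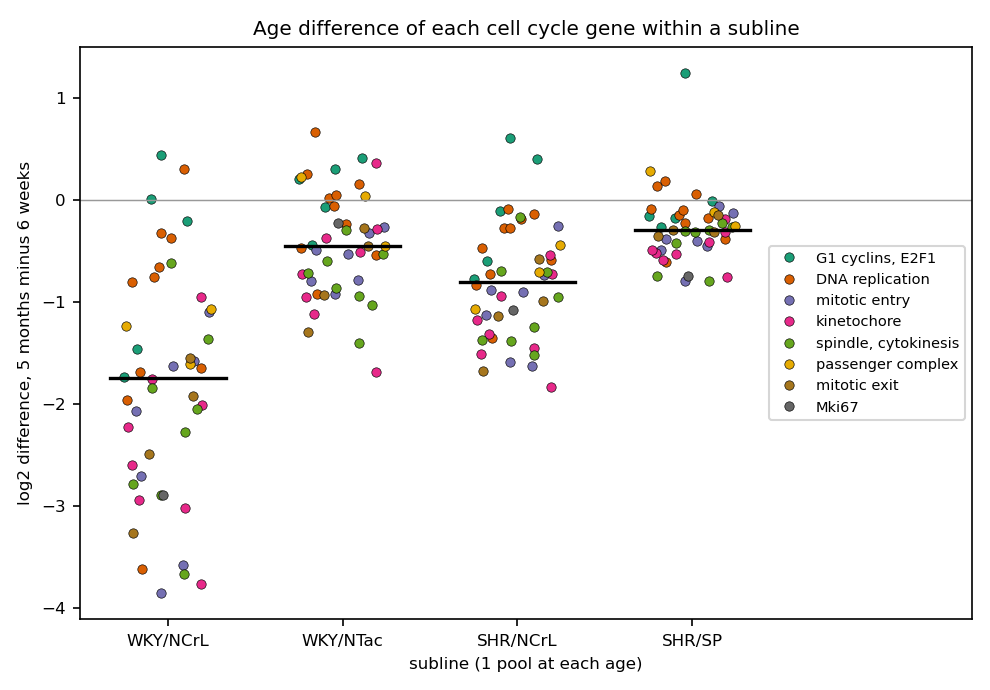
Difference between the pool of 5 months and the pool of 6 weeks for each gene within each subline, in log2 units, coloured by role, with the median of the 46 genes as a bar. Medians are -1.74 in WKY/NCrL, -0.45 in WKY/NTac, -0.8 in SHR/NCrL and -0.3 in SHR/SP.

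WKY/NCrL stood at both ends of the range. The median level of the 46 genes was 0.63 in this subline at 6 weeks, -0.11 in WKY/NHsd and -0.13 in WKY/NTac, and at 5 months it was -1.15 in WKY/NCrL and -0.62 in WKY/NTac. WKY/NCrL held the highest value of the 10 pools for 31 genes at 6 weeks (10.4% of all probes) and the lowest for 39 genes at 5 months (11.6% of all probes). In SHR the 3 young pools were nearly equal, at 0.35, 0.35 and 0.39 in NCrL, NHsd and SP, and the older ones were at -0.52 in NCrL and 0.03 in SP. The failed arrays of 5 months, which entered no comparison, had medians of -0.54 for WKY/NHsd and -0.48 for SHR/NHsd.

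Single pools changed the number of genes called in the comparison averaged over strains. With all pools 30 genes were called in either direction, and 1.69% of all probes. Without WKY/NCrL at 5 months 7 genes were called (0.715% of all probes), without SHR/NCrL at 5 months 9 (0.866%), and without both 2, *Ndc80* and *Nusap1* (0.563%). Without SHR/SP or SHR/NHsd at 6 weeks 16 and 18 genes were called (0.85% and 0.902% of all probes). All 4 groups were present on each of the 2 slides. Within slide 1 the median change averaged over strains was -0.98 and within slide 2 -0.58, with 43 and 44 of the 46 genes lower. In WKY these medians were -1.36 and -0.6, where slide 1 held the NCrL pool of 5 months and slide 2 the NTac pool.

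The second question was whether these genes differed between strains. At 6 weeks 40 of the 46 genes had higher values in SHR (48.4% of all probes), with a median of 0.27, and 0 genes were called (0.29% of all probes in either direction). By unadjusted p under 0.05 in limma's test 2 genes passed (7.95% of all probes). The pools did not overlap for 2 genes, both higher in SHR (5.85% of all probes), which were *Pcna* and *Ccnb2*. At 5 months 44 genes had higher values in SHR (51.7% of all probes), with a median of 0.59 (1.5-fold). The pools did not overlap for 30 genes, all higher in SHR, against 19.9% of all probes. The nearest pools of both strains by median level at 5 months were WKY/NTac at -0.62 and SHR/NCrL at -0.52. Both SHR pools of that age and WKY/NCrL came from the same breeder, and WKY/NTac from another. The young and the old comparison use different pools, but the WKY pools of 5 months also enter the fall in WKY given above, so that the pair of results is not independent.

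At 5 months 1 gene was called, against 0.211% of all probes called higher. *Racgap1* was at -1.36 in NCrL and -0.85 in NTac for WKY, and at -0.24 in NCrL and 0.33 in SP for SHR. It was 1.15 ± 0.23 higher in SHR (2.22-fold, adjusted p = 0.0404 in limma). At 6 weeks its levels were 0.69 in NCrL, -0.04 in NHsd and 0.18 in NTac for WKY, and 0.47 in NCrL, 0.35 in NHsd and 0.56 in SP for SHR, which overlap. Averaged over ages *Racgap1* was higher by 0.67 ± 0.15 (adjusted p = 0.0361 in limma) and *Spc25* by 0.91 ± 0.21 (adjusted p = 0.0485), against 0.672% of all probes called higher. When the arrays of a pool were averaged, 0 genes were called in any of these strain comparisons. The call of *Racgap1* at 5 months was lost in 6 of the 10 fits that left out 1 pool, with adjusted p from 0.0205 to 0.505 in limma. The lowest came without WKY/NCrL at 6 weeks and the highest without WKY/NCrL at 5 months.

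*Spc25* was at 0.41 in NCrL, -0.6 in NHsd and -0.35 in NTac for WKY at 6 weeks, and at 0.64 in NCrL, 0.12 in NHsd and 0.44 in SP for SHR. At 5 months it was at -2.19 in NCrL and -1.3 in NTac for WKY, and at -0.87 in NCrL and -0.08 in SP for SHR. The strains overlapped at 6 weeks and did not at 5 months. *Ccnb2* was the only 1 of the 46 genes whose pools separated the strains at both ages, a share near the 2.21% of all probes. It was well above background on 1 of 2 arrays of WKY at 5 months. It was at 0.65 in NCrL, -0.57 in NHsd and -0.01 in NTac for WKY and at 0.66, 0.66 and 0.72 in NCrL, NHsd and SP for SHR at 6 weeks. The highest WKY pool there, at 0.65, thus lay just below the lowest SHR pools, at 0.66. At 5 months it was at -1.42 in NCrL and -0.81 in NTac for WKY and at -0.47 in NCrL and 0.23 in SP for SHR. Averaged over ages its difference was 0.83 ± 0.2 (adjusted p = 0.0536 in limma).

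By role, the values at 5 months were 1 for the median of mitotic entry, 0.87 for the kinetochore, 1.04 for spindle and cytokinesis, 0.75 for mitotic exit, 0.48 for the passenger complex, 0.32 for replication and 0.26 for G1 genes. At 6 weeks the same medians were 0.44, 0.33, 0.28, 0.16, 0.29, 0.24 and 0.24. The largest difference at 5 months was that of *Knstrn* at 1.79 ± 0.44 (adjusted p = 0.123 in limma), followed by *Rrm2* at 1.53 ± 0.4 (adjusted p = 0.154), *Prc1* at 1.49 ± 0.39 (adjusted p = 0.154) and *Cdk1* at 1.48 ± 0.44 (adjusted p = 0.246). *Mki67* differed by 0.9 ± 0.38 (adjusted p = 0.53 in limma). These 5 genes did not overlap between strains at 5 months, and none passed the test.

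**Figure D5:**
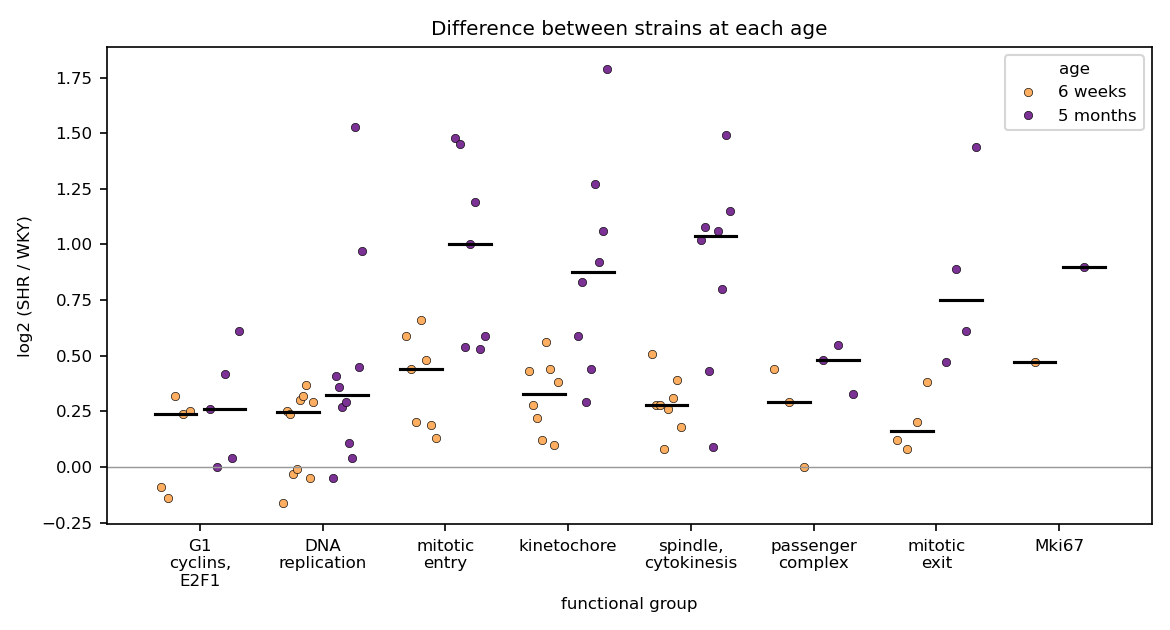
Difference between strains of each gene at 6 weeks (orange) and at 5 months (purple), as log2 of SHR over WKY, by role, with the median of the role as a bar. Medians of the mitotic roles are 0.16 to 0.47 at 6 weeks and 0.48 to 1.04 at 5 months. Those of the G1 genes are 0.24 and 0.26.

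The difference between the age changes of both strains was tested as an interaction. The change was less negative or more positive in SHR for 43 of the 46 genes (52.7% of all probes), with a median of 0.36, and 0 genes were called in limma, as were 0 of all probes, while 6 of the genes had an unadjusted p under 0.05 (4.12% of all probes). Within slide 1 the median of the interaction was 0.83 and within slide 2 it was -0.08. The test thus did not show that the age changes differed between strains.

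Other genes of the cell cycle were taken from lists that did not include the 46 genes. Of 46 other mitotic genes, 40 had lower values upon maturation averaged over strains, 17 were called lower and 0 higher, with a median of -0.45. In this comparison 14672 of all 30367 probes were lower, with 1.16% called lower and 0.533% called higher. The largest falls were those of *Ckap2*, a spindle protein, at 1.48 ± 0.26 (adjusted p = 0.0075 in limma), *Aspm*, which acts at spindle poles, at 1.47 ± 0.24 (adjusted p = 0.00496), and *Ect2*, the exchange factor that starts cytokinesis, at 1.44 ± 0.27 (adjusted p = 0.0119). In WKY alone *Ckap2* fell by 2.08 ± 0.39 and the kinesin *Kif22* by 1.67 ± 0.28, the only 2 called (0.148% of all probes called lower). Between strains *Aspm* was 1.09 ± 0.24 higher in SHR averaged over ages (adjusted p = 0.0338 in limma), where 0.672% of all probes were called higher. Of 27 other replication and S-phase genes, 25 had lower values upon maturation averaged over strains, with a median of -0.2, and 0 were called. Of 9 other G1 genes, *Cdk2*, the partner of E-type cyclins, fell by 0.47 ± 0.1 in the same comparison (adjusted p = 0.0206 in limma). Of 12 CDK inhibitors and pocket proteins, which hold cells out of the cycle, 0 were called upon maturation and their median was -0.02, and *Cdkn2b*, an inhibitor of CDK4 and CDK6, was 0.45 ± 0.09 higher in SHR averaged over ages (adjusted p = 0.0266 in limma).

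In whole vessels, fewer dividing cells and less of a transcript per cell cannot be told apart, and neither can the cell type in which these genes were expressed. Values of markers of several cell types differed with age or strain. Of 7 fibroblast markers, 4 were lower averaged over strains, and *Col1a2*, a collagen gene, and *Thy1* were called. Of all 30367 probes 14672 were lower in this comparison, and 1.16% were called lower. The mean level of the 7 markers was -0.05 to 0.1 in WKY at 6 weeks, -0.4 to 0.03 in WKY at 5 months, 0.04 to 0.59 in SHR at 6 weeks and -0.18 to -0.08 in SHR at 5 months. All 7 red blood cell markers were lower in both strains, with 1 called. Their mean level was -0.38 to 0.42 and -0.65 to 0.03 in young and old WKY and -0.07 to 0.23 and -0.87 to -0.04 in young and old SHR. Of 8 Schwann cell markers 5 were lower and 2 called, with mean levels of -0.66 to 0.23 and -0.63 to -0.27 in WKY and -0.01 to 0.77 and -0.41 to -0.25 in SHR.

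All 8 macrophage markers were higher in SHR than in WKY at both ages, with medians of 0.78 at 6 weeks and 0.51 at 5 months and 0 called. Their mean level was -0.58 to 0 in WKY at 6 weeks, -0.95 to 0.4 in WKY at 5 months, -0.08 to 0.74 in SHR at 6 weeks and -0.19 to 0.83 in SHR at 5 months. All 7 adipocyte markers were lower in SHR upon maturation, with a median of -1.43 and 0 called. Their mean level was -0.32 to 0.98 in SHR at 6 weeks, -1.01 to -0.71 in SHR at 5 months, -1.37 to 0.39 in WKY at 6 weeks and -0.46 to 0.1 in WKY at 5 months. All 6 endothelial markers had lower values averaged over strains and in SHR, with medians of -0.18 and -0.32, and in WKY 3 of 6. Their mean level was 0.08 to 0.35 in SHR at 6 weeks, -0.56 to -0.16 in SHR at 5 months, -0.24 to 0.34 in WKY at 6 weeks and -0.05 to 0.1 in WKY at 5 months.

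Smooth muscle markers had higher values upon maturation, 8 of 8 in SHR and 7 of 8 in WKY, with medians of 0.17 and 0.2. Their mean level was -0.52 to 0 in SHR at 6 weeks, -0.26 to 0.28 in SHR at 5 months, -0.11 to 0.07 in WKY at 6 weeks and 0.07 to 0.26 in WKY at 5 months. All 5 mesothelial markers had higher values in SHR at 6 weeks, with a median of 0.43, and 4 of 5 at 5 months. Their mean level was -0.13 to -0.03 in WKY and 0.17 to 0.45 in SHR at 6 weeks, and -0.35 to 0.03 in WKY and 0.01 to 0.13 in SHR at 5 months. No marker of these 3 lists was called in any comparison, and of the mesothelial markers 1 to 5 were above background in a pool. Of 7 lymphocyte markers 2 or 3 were above background in each pool. The part of these markers in the changes of the cell cycle genes was not tested.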

How the data were processed

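Small mesenteric arteries of SHR and WKY were profiled on 2-colour Agilent rat arrays. Test RNA was labelled with Cy3 and the common reference with Cy5, without dye swap. The authors extracted spots with Feature Extraction 10.7.3.1. Their deposited scanner files give, for both channels, intensity on a linear scale and the local background. The authors also deposited log2 ratios of test over reference, made with limma in R 3.0.0, which the ratios rebuilt here matched on each array (r of 0.999883 or more, largest difference 0.0565). The array design names build rn4, and no coordinates of probes are given.

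Leaving out control spots, 58717 of the 62976 spots on an array remained, from 30367 probes. Median intensities were corrected by normexp (offset 15) and loess within each array, spots marked as outliers were dropped, and the mean over the spots of each probe was taken. The deposited flags for well above background were read per spot, and a probe was counted when at least 0.5 of its spots had the flag. Groups were compared with limma 3.58.1 in R 4.3.3 (lmFit, duplicateCorrelation with pool as block, correlation 0.442, eBayes), all 14 arrays in 1 fit, two-sided, with Benjamini-Hochberg adjustment over all 30367 probes and a threshold of 0.05. This treats the spread between sublines as the error. The common correlation is set over all probes. On simulated data with 200 of 3000 probes changed by 1.5 on the log2 scale, the fit called 93.5% to 99.5% of these in the 7 comparisons, and 4.46% to 8.1% of the calls were false. All simulated probes had about the common correlation that the fit assumes. These rates therefore do not give the error rate for genes whose arrays of a pool agree more closely. The number of arrays limits the precision.

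Genes were matched by accession through a RefSeq table (GRCr8), which named 18355 probes (60.4%). The 46 genes, the other lists and the marker lists were chosen with earlier results of these data known, so no p is given for a list. Genes are named that were called in any comparison or had the largest age or strain change of their role, and other members by counts and examples. Of other lists up to 3 called genes per direction and comparison are named. Promoters came from RefSeq (GRCr8, 300 bases). Both failed arrays were left out of all comparisons.

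Alternatives for the values were the deposited log2 values, processed signals, an offset of 50, median centring and the test channel alone. For the probes, outlier spots were kept, dim probes dropped or the probes of a gene averaged. For the fit, technical replicates were averaged, failed arrays included, each pool left out in turn, the slide, the subline or the replicate number used as a block, eBayes run with robust and trend, or the fit restricted to the groups compared. The fits with 1 array per pool, without both NCrL pools of 5 months and within slides were added after seeing the data.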

Additional observations from a re-analysis of the deposited data

Results flagged for a closer look

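*Rrm1*, the large subunit of ribonucleotide reductase, had age differences above 0 in the WKY sublines and below 0 in the SHR sublines measured at both ages. From 6 weeks to 5 months its log2 difference was 0.3 in WKY/NCrL and 0.15 in WKY/NTac, and -0.14 in SHR/NCrL and -0.18 in SHR/SP. Each value rests on 1 pool at each age. The pair of arrays of SHR/SP gave levels of 0.32 and 0 at 6 weeks and -0.14 and 0.11 at 5 months, so that the sign of that difference depends on the array. The difference between strains was not tested on these values. In limma's fit on all groups, which also holds the NHsd pools of 6 weeks, the change of *Rrm1* was 0 ± 0.22 in WKY and -0.28 ± 0.19 in SHR.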

How the results depend on the processing

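The median of the 46 genes kept its direction in each comparison that was fitted under the 27 settings tried and within each slide, except for the interaction within slide 2. Strain comparisons were not fitted with the subline as a block, nor averages and the interaction with only the compared groups. Over all settings the changes of the named genes kept their sign, with 914 values on the same side of the threshold, 342 that lost the call and 15 that gained it. The 2 or 3 pools per group limit the precision, and signal over background limits it for the 10 genes not above background on every array. The numbers of genes called depended on the settings, and the cause was not tested, except that fits with fewer arrays had fewer degrees of freedom.

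With the processed signals of Feature Extraction 2 genes were called in WKY (median -1.35), 0 in SHR, 17 averaged over strains (median -1.15), 0 between strains at 5 months (median 1.03) and 0 averaged over ages. The shares of all probes called in that fit were 0.0922%, 0.293%, 0.945%, 0.0823% and 0.715%, respectively. An offset of 50 gave 3 calls in SHR (1.63% of all probes). Median centring in place of loess gave 0 in SHR (0.379%), 0 between strains at 5 months (0.138%) and 0 averaged over ages (0.734%). The last 2 counts were also 0 with the test channel alone (0.468% and 1.8%) and with the failed arrays included (0.056% and 0.398%). In the fit with the failed arrays 2 genes were called in WKY (0.0428%) and 0 in SHR (0.31%). With technical replicates averaged the counts were 0 in WKY (0.0494%), 0 in SHR (0.0231%), 3 averaged over strains (0.481%) and 0 in both strain comparisons (0.0362% and 0.428%). With 1 array per pool, a fit added after seeing the data, these counts were 0, 0, 2, 0 and 0. The shares of all probes called there were 0.0461%, 0.0296%, 0.342%, 0.0329% and 0.415%. Without both NCrL pools of 5 months, also added after seeing the data, each strain kept a single pool at that age. In that fit 41 of the 46 genes were lower in WKY, 41 in SHR and 44 averaged over strains. With only the compared groups in the fit 0 genes were called in WKY (0% of all probes), 11 in SHR (1.72%) and 0 between strains at 5 months (0.171%). Averaged over ages 1 gene was called with probes of a gene averaged (1.22%), with eBayes trend and robust (1.28%) and with slide as a block (1.28%). With the subline as a block 2 genes were called in WKY (0.161%) and 1 in SHR (1.29%). In that fit 22 genes were called lower and 1 higher averaged over strains (1.91%).

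Within slide 1 the median in WKY was -1.36 and that of the interaction 0.83, and within slide 2 they were -0.6 and -0.08 (values with no test, added after seeing the data).

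With 1 pool left out at a time, the count of genes called ranged from 0 (without WKY/NCrL at 5 months) to 13 (without WKY/NTac at 5 months) in WKY, from 0 to 5 (without WKY/NCrL at 6 weeks) in SHR, from 7 (without WKY/NCrL at 5 months) to 34 averaged over strains, from 0 to 3 (without SHR/NCrL at 5 months) between strains at 5 months, and from 0 to 16 (without WKY/NCrL at 6 weeks) averaged over ages. Fits without a pool of 5 months kept a single pool in that group, so their counts are not set against a share here. The share of all probes called also moved. Without 1 pool of 6 weeks it ranged from 0.0724% to 0.375% in WKY and from 0.112% to 1.53% in SHR. In those fits it was 0.85% to 2.66% averaged over strains, 0.168% to 0.533% between strains at 5 months and 0.751% to 1.44% averaged over ages. With any 1 pool left out, medians ranged from -1.25 to -0.72 in WKY, -0.96 to -0.32 in SHR, -0.96 to -0.65 averaged over strains, 0.12 to 0.46 at 6 weeks, 0.35 to 0.92 at 5 months, 0.28 to 0.61 averaged over ages and 0.12 to 0.64 for the interaction.

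A replicate number in the labels stood for the same subline at both ages only in SHR/SP. Correlations of deviations were -0.14 to 0.394 between pools of the same number and -0.0945 to 0.122 between pools of the same subline. They cannot decide whether the numbers pair the pools, since pools known to share a subline were not more alike. With the replicate block 11 genes were called in SHR (2.97% of all probes), 33 averaged over strains (3.05%), 0 between strains at 5 months (0.441%) and 0 averaged over ages (1.24%), against 1.04%, 1.69%, 0.395% and 1.31% of all probes without it.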
